A study of Mus musculus with 10 samples.

Results

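The Zbtb genes encode transcription factors that pair an N-terminal BTB domain with C2H2 zinc fingers. They were followed here in wild-type and CTCF-depleted mouse oocytes. Members were all probe sets whose only gene symbol in the array's annotation begins with Zbtb and a number, which gave 87 of the 45101 probe sets on each array and 40 of the 18193 gene symbols that stand alone on a probe set. Of these symbols 39 are BTB zinc finger genes. The remaining one, Zbtb11os1, is named as a transcript opposite to Zbtb11 and matched by name alone. A further 5 probe sets with a Zbtb symbol among several symbols were left out.

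The BTB domain lets these proteins pair with each other and recruits co-repressor complexes such as those built on Ncor1 and Bcor, or the ubiquitin ligase scaffold Cul3, while the zinc fingers read DNA. Several members fix cell fate in blood and immune cells or in the nervous system. A small group that includes Kaiso, the product of Zbtb33, binds methylated DNA. CTCF is itself a protein of C2H2 zinc fingers, but it has no BTB domain. It occupies insulator elements and anchors chromatin loops.

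The samples were germinal vesicle oocytes, which are fully grown and arrested in the prophase of the first meiotic division, as 5 wild-type and 5 CTCF-depleted arrays. The labels gave no strain, animal age, method of depletion, promoter or number of oocytes. Nor did they say if each sample had its own donor animals, and the p-values below reflect only how these samples vary, which could be technical variation. Total RNA was labelled with biotin and measured as a MAS5 signal, a brightness per probe set on a linear scale in arbitrary units. In such bulk RNA, fewer oocytes with a transcript and less of it in each oocyte cannot be told apart.

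Every wild-type array carried far more Ctcf signal than any depleted array. On the 2 Ctcf probe sets the wild-type arrays read 699.7 to 876.9 and 897.9 to 1071, and the depleted arrays 7.07 to 61.1 and 16.7 to 95.8. Depleted replicate 5 held the highest residual on both. All 10 oocyte markers on the array lay above background on all 10 arrays, where background is the highest of 27 probe sets for Bacillus transcripts, which mouse RNA lacks, on the same array. Of the granulosa and cumulus markers 8 of 9 did so too. The summed signal of all 9 was 713 to 1365 in wild-type and 784 to 986 in depleted samples. Inha alone read 536.2 in wild-type replicate 2, against 121.3 to 187.9 in the other wild-type samples. Of the 9 markers 2, Fshr and Nr5a2, were called higher in depleted samples and 0 lower. The median log2 fold change of the 9, depleted over wild type, was -0.10. Kitl, which was not called, read lower on every depleted array than on any wild-type array. The part of these markers in the results below was not tested. Of 7 theca and stroma markers 1 and of 7 blood, immune and endothelial markers 2 lay above background on all arrays, no member of either list was called, and Col1a1 and Ptprc lay above background on no array.

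The promoter windows of 2 genes are shown because they belong to the member that fell and to the methyl-DNA-binding member that rose. Both come from RefSeq on the build GRCm38.p6 and run from 250 bases before to 50 bases after the annotated start of transcription, in the direction of the gene. The array files name no genome build of their own. Capitals mark matches to a 12-letter pattern written from the sequence that CTCF prefers and searched on both strands, which reads CC, 3 free bases, AG, 2 free bases and GGC. The Zbtb39 window lies at chr10:127739280-127739579 and the Zbtb33 window at chrX:38189543-38189842, both on the plus strand.
Zbtb39: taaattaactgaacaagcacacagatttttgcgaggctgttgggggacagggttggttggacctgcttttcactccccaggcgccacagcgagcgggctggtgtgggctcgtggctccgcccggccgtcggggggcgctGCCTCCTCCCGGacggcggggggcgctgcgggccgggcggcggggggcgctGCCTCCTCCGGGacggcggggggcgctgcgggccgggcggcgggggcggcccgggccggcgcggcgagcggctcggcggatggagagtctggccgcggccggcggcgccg
Zbtb33: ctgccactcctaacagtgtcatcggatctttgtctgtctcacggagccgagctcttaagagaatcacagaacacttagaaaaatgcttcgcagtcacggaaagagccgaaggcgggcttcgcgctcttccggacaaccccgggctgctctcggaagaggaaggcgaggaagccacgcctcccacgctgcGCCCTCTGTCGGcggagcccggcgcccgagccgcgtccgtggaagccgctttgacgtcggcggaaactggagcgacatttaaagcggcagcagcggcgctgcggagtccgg

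The pattern occurred 2 times in the Zbtb39 window, from positions 140 and 191 counted from its 5′ end, and 1 time in the Zbtb33 window, from position 190. All 3 matches lay on the minus strand and upstream of the start. In the RefSeq set 8.61% of all 32851 windows held at least 1 match and 0.588% held 2 or more. Among the 48 windows of 35 Zbtb genes the share with a match was 10.4%, namely 5 windows, those of Zbtb1, Zbtb18, Zbtb33, Zbtb39 and Zbtb41. Zbtb7c, Zbtb10, Zbtb16, Zbtb40 and Zbtb48 had no entry. A second string, GGGGGCGCT, which overlaps the G-rich core of the CTCF consensus, was searched only after the Zbtb39 window had been read. It stood there 4 times on the plus strand, from positions 131, 158, 182 and 209, and the copies at 131 and 182 end directly before the capitals without overlapping them. At least 1 copy on either strand was present in 0.734% of all windows and in 1 of the 48 Zbtb windows. At least 4 copies were present in 1 window of the table, that of Zbtb39. These matches describe letters and not bound sites. The Zbtb windows were rich in G and C, with a median of 64.3% against 52.7% over all windows and a range from 38.3% to 84.0%.

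Setting CTCF-depleted against wild-type oocytes addresses which transcripts differ when CTCF is depleted. Within the Zbtb family 1 gene fell steeply and 5 rose modestly, and most did not pass the test. Of the 87 probe sets 71 were bright enough to test, covering 39 of the 40 symbols. With each gene represented by its brightest probe set, 5 genes were called higher and 1 lower in depleted oocytes. A call means a Benjamini-Hochberg adjusted p under 0.05 in limma, with the adjustment made across the 27022 probe sets tested. The 6 called genes were 15.4% of the tested Zbtb genes, against 16.4% of all 13811 tested genes, so the share of calls lay near the background. By direction it was 12.8% higher against 7.26% of all genes, and 2.56% lower against 9.12%. Counted as probe sets, 6 of 71 were called, 8.45% against 12.6% of all probe sets (5 higher, where the background was 5.48%, and 1 lower, where it was 7.12%). The median log2 fold change of the Zbtb genes, depleted over wild type, was 0.072, against -0.017 over all tested genes. Over the 71 Zbtb probe sets it was -0.0018, against -0.021 over all tested probe sets. The Zbtb median was thus the higher in both counts, but by less over probe sets. With each array centred on its median instead of as deposited, 66.7% of all called probe sets were higher in place of 43.5%. Over all probe sets 2179 were then called higher in place of 1481, and 9 of 39 tested Zbtb genes were called higher. The count of rises also varied with the arrays used. It was 2 without wild-type replicate 5, depleted replicate 1 or depleted replicate 4, 3 without wild-type replicate 1, 3 or 4 or depleted replicate 3, and 6 without depleted replicate 2. Rises over all probe sets varied too, from 1144 without wild-type replicate 5 to 1456 without depleted replicate 2.

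**Figure D1:**
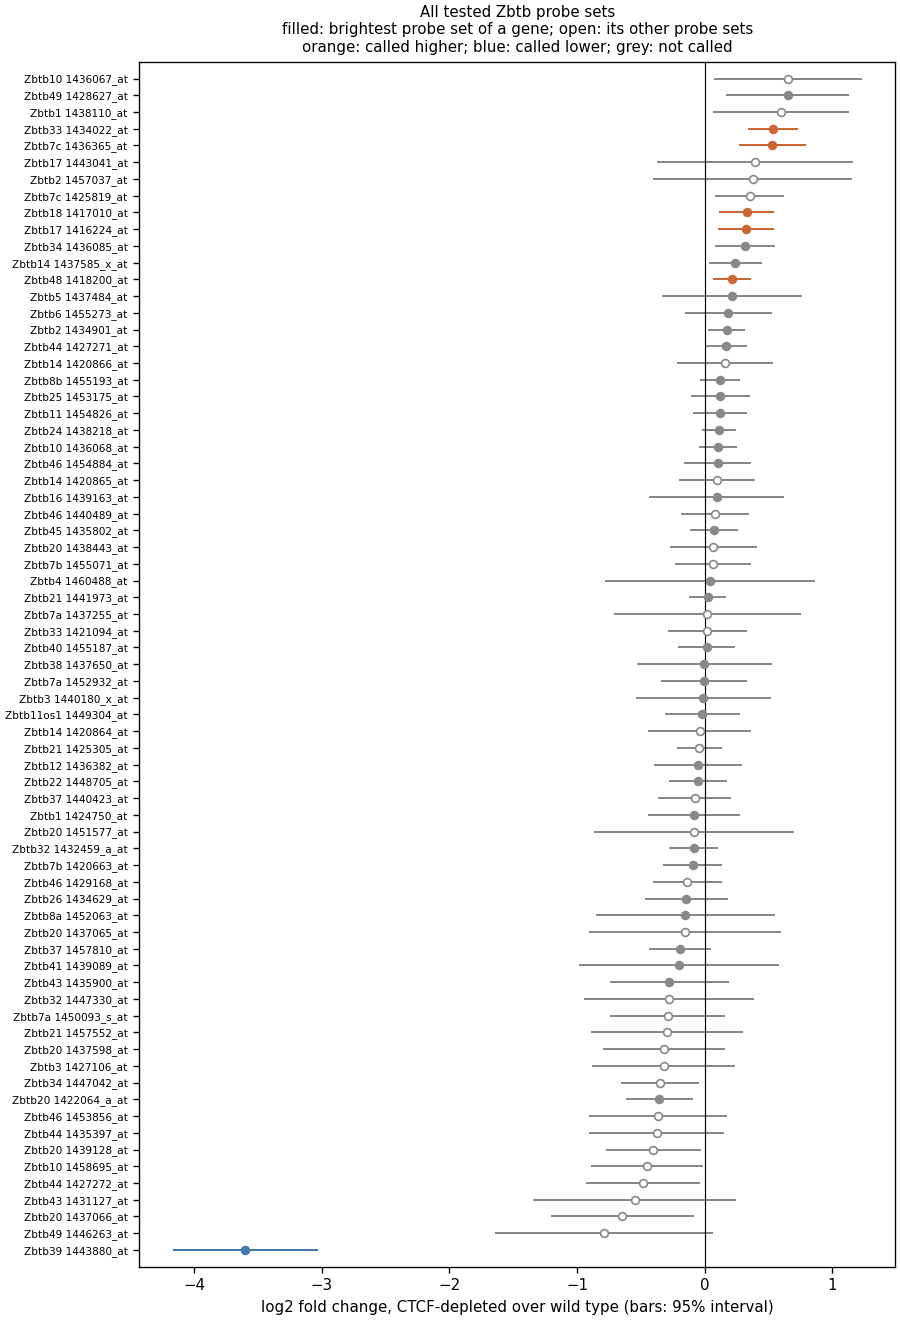
Log2 fold change of each tested Zbtb probe set (x axis, depleted over wild type) with its 95% interval, ordered by value (y axis). Zbtb39 stands alone at -3.60, and the 5 called rises lie between 0.21 and 0.54.

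Zbtb39 signal was nearly lost from depleted oocytes. Its only probe set read 104.6, 115.8, 111.8, 105.9 and 99.8 on wild-type replicates 1 to 5. It read 7.67, 5.52, 1.56, 8.86 and 14.1 on depleted replicates 1 to 5. The lowest wild-type array was thus far above the highest depleted array, and the groups did not overlap. The mean was 108 ± 6.27 (SD, n = 5) in wild-type and 7.54 ± 4.60 in depleted oocytes, where 3 of the 5 arrays were not above background.

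The log2 fold change of Zbtb39 was -3.60 ± 0.27 (SE), with a 95% interval from -4.16 to -3.04 (limma, Benjamini-Hochberg adjusted p = 1.04e-07). The two-sided exact permutation p was 0.00794, which no split of 5 against 5 can go below. All 5 wild-type arrays lay above background for Zbtb39, as did 2 depleted arrays, replicates 4 and 5. The background level was also lowest on those 2, at 6.88 and 4.75, against 8.18 to 10.9 on the other depleted arrays. Because the depleted signal is that dim, the size of the fall depends on the offset added before the logarithm, and an offset of 16 in place of 2.47 gave -2.41. The highest Zbtb39 signal among depleted samples was in replicate 5, which also kept the most Ctcf signal. Replicate 4, with the next highest Zbtb39 signal, had the lowest signal on 1 of the 2 Ctcf probe sets, at 16.7. A relation between Zbtb39 and residual Ctcf signal was not tested. Without replicate 5 the log2 fold change of Zbtb39 was -3.82.

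Zbtb33, which encodes Kaiso, a protein that binds methylated DNA, rose on its brighter probe set. Wild-type replicates 1 to 5 read 358.2, 366.2, 359.6, 329.3 and 326.2. Depleted replicates 1 to 5 read 624.0, 463.0, 550.3, 492.0 and 423.2. Each depleted array was higher than every wild-type array, and the smallest of the depleted values came from replicate 5. Means were 348 ± 18.7 (SD, n = 5) and 510.5 ± 78.6, a 1.45-fold rise on the log2 scale used, or 0.54 ± 0.09 (SE; limma, Benjamini-Hochberg adjusted p = 0.000565; two-sided exact permutation p = 0.00794). The dimmer Zbtb33 probe set was not called. Its wild-type arrays ran from 40.5 to 51.9 and its depleted arrays from 33.8 to 59.6, and its log2 fold change was 0.022, with a 95% interval from -0.28 to 0.32 that leaves out the value of the brighter probe set. Averaged over both probe sets, Zbtb33 changed by 0.28 ± 0.07 on the log2 scale (SE; limma, Benjamini-Hochberg adjusted p = 0.0141).

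The other methyl-DNA-binding members were dim. Zbtb38 had 1 tested probe set of 3, at 8.88 ± 2.46 (SD, n = 5) in wild-type and 8.80 ± 2.38 in depleted samples. Zbtb4 had 1 of 4, at 9.59 ± 5.78 and 9.70 ± 5.27. Their log2 fold changes of -0.0018 and 0.043 had 95% intervals from -0.52 to 0.52 and from -0.77 to 0.86, so changes well over those measured could not be detected at these signals.

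**Figure D2:**
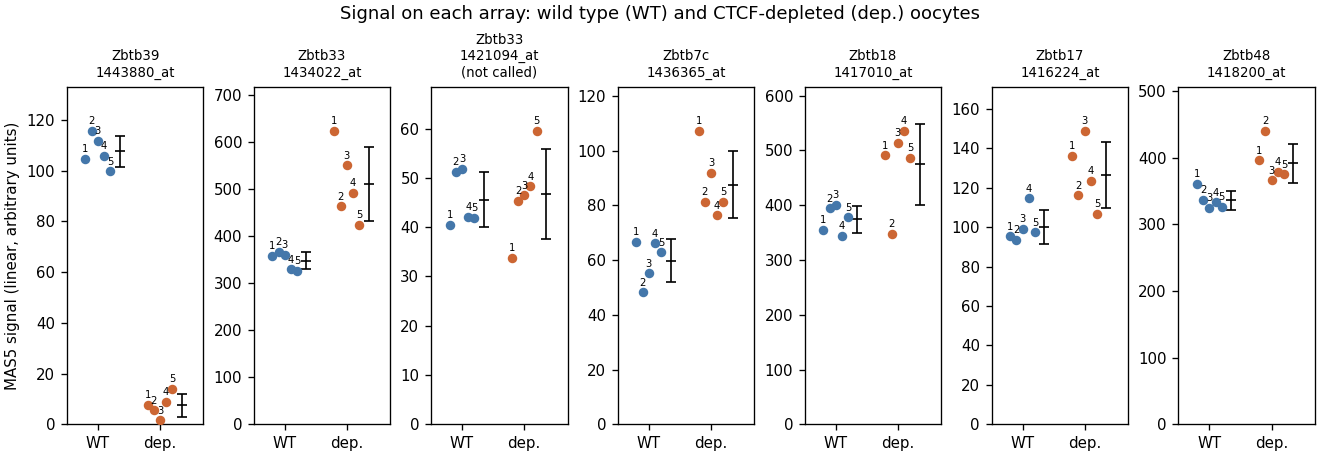
Signal of each array (y axis, linear MAS5 units) for the 6 called probe sets and the uncalled Zbtb33 probe set, with replicate numbers beside the points and mean ± SD (n = 5) as black bars. Zbtb39 depleted arrays lie at 1.56 to 14.1 below wild-type arrays of 99.8 to 115.8, and the brighter Zbtb33 probe set separates the groups while the dimmer one does not.

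Zbtb7c, a close relative of the repressor gene Zbtb7a, rose as far as Zbtb33. On its brightest probe set, the wild-type replicates 1 to 5 read 66.8, 48.3, 55.2, 66.1 and 62.8, and the depleted replicates 107.3, 81.2, 91.8, 76.4 and 81.3. The groups did not overlap (59.8 ± 7.95 against 87.6 ± 12.4, SD, n = 5). On the log2 scale the rise was 0.53 ± 0.12 (SE; limma, Benjamini-Hochberg adjusted p = 0.00707; two-sided exact permutation p = 0.00794). A second Zbtb7c probe set gave 0.35 with an adjusted p of 0.0771 in the same limma fit, and the third was too dim to test. Zbtb7a itself, which represses fetal globin in red blood cells, had log2 fold changes of -0.0080, -0.29 and 0.022 on its 3 probe sets, and none was called.

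Zbtb18 on chromosome 1, a transcriptional repressor needed for the maturation of neurons, was higher on 4 of 5 depleted arrays. The wild-type replicates 1 to 5 read 354.6, 394.1, 400.6, 344.5 and 377.9. The depleted replicates read 491.2, 347.6, 513.9, 536.0 and 486.5, so that replicate 2 fell within the wild-type range. The log2 fold change was 0.33 ± 0.10 (SE; limma, Benjamini-Hochberg adjusted p = 0.0351; two-sided exact permutation p = 0.0397). The call was lost without any 1 of wild-type replicates 1, 4 and 5 or depleted replicates 1, 3, 4 and 5, at adjusted p-values between 0.0631 and 0.0976, while the log2 fold change stayed between 0.28 and 0.44.

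Zbtb17 on chromosome 4, which encodes Miz-1, a DNA-binding partner of Myc, read 95.4, 93.4, 99.2, 114.6 and 97.4 in wild-type and 136.3, 116.1, 148.9, 123.5 and 106.6 in depleted replicates 1 to 5. The highest wild-type array overlapped the lowest depleted array. The log2 fold change was 0.32 ± 0.10 (SE; limma, Benjamini-Hochberg adjusted p = 0.0457; two-sided exact permutation p = 0.0159), and its other, dim probe set gave 0.39, which was not called. Averaged over both probe sets, Zbtb17 was no longer called (0.36 ± 0.18, SE; limma, Benjamini-Hochberg adjusted p = 0.221). The call on the brighter probe set was lost without wild-type replicate 1, 2, 3 or 5 or depleted replicate 1, 3 or 4, at adjusted p-values from 0.0790 to 0.114.

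Zbtb48, also on chromosome 4, whose human protein binds telomeric DNA, showed the smallest called rise. Wild-type replicates 1 to 5 read 360.5, 337.3, 325.2, 333.1 and 326.3, and depleted replicates 396.1, 440.8, 366.2, 379.2 and 375.0. The groups did not overlap, although the gap between them was only 360.5 to 366.2. The log2 fold change was 0.21 ± 0.07 (SE; limma, Benjamini-Hochberg adjusted p = 0.0415; two-sided exact permutation p = 0.00794). The call was lost without wild-type replicate 2, 3, 4 or 5 or depleted replicate 1, 2 or 4, at adjusted p-values from 0.0621 to 0.0941, with quantile normalization (0.0611) and with the ratio of 3-prime to 5-prime control signal as a covariate (0.138). Without a filter on dim probe sets, or without the intensity trend in the variance, none of Zbtb17, Zbtb18 and Zbtb48 was called.

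The rises were uneven among depleted samples. As a percentage of the wild-type mean, the brighter Zbtb33 probe set stood at 179, 133, 158, 141 and 122 in depleted replicates 1 to 5, and Zbtb18 at 131, 92.9, 137, 143 and 130.0. Zbtb48 instead was highest in replicate 2, at 131 against 109 to 118 in the others. The lowest depleted value was in replicate 5 for Zbtb33 and Zbtb17, replicate 4 for Zbtb7c, replicate 2 for Zbtb18 and replicate 3 for Zbtb48. The median over the tested Zbtb genes, relative to their wild-type mean on the log2 scale, was 0.20, -0.042, 0.14, 0.072 and 0.072 in depleted replicates 1 to 5, whereas the median over all tested genes ran from -0.036 to 0.016. The log2 ratio of 3-prime to 5-prime signal of the Actb and Gapdh controls was lowest in depleted replicate 2, at 2.58, against 2.75 to 2.93 in the other depleted and 2.77 to 3.07 in the wild-type samples. Its part in the rises was not tested beyond its use as a covariate, under which Zbtb17, Zbtb18, Zbtb33 and Zbtb7c were still called higher and Zbtb39 lower.

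**Figure D3:**
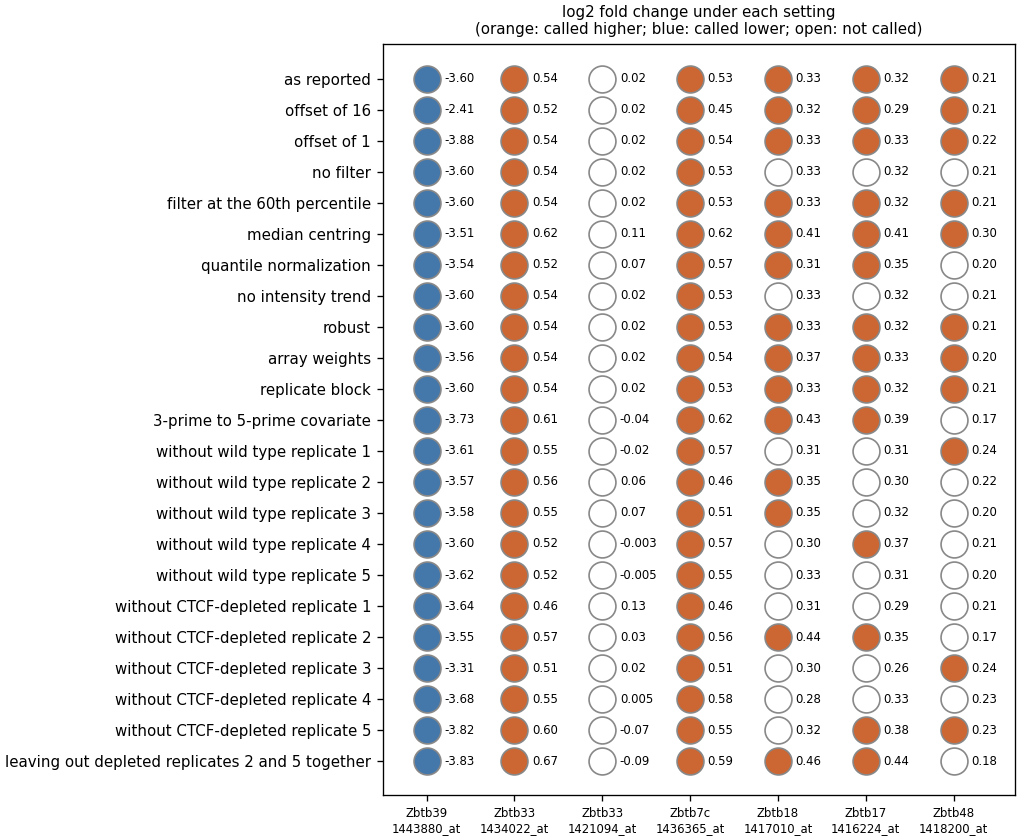
Log2 fold change of the called probe sets and of the second Zbtb33 probe set (columns) under each processing setting (rows). Zbtb39, the brighter Zbtb33 probe set and Zbtb7c were called under every setting shown, and the calls of Zbtb17, Zbtb18 and Zbtb48 were lost under several.

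The remaining 33 tested genes had log2 fold changes from -0.36 to 0.65 and adjusted p-values of at least 0.0651. For 25 of them the 95% interval lay within 1.5-fold in either direction and for 32 within 2-fold, the exception being Zbtb49. The 32 include Zbtb3, Zbtb4, Zbtb8a, Zbtb16, Zbtb38 and Zbtb41, which read near background. At such dim signals the offset shrinks changes, so their intervals do not bound a change in transcript. Nearest to a call were Zbtb20, a repressor of hippocampal and liver genes, at -0.36 ± 0.12 (SE; limma, Benjamini-Hochberg adjusted p = 0.0651), Zbtb34 at 0.31 ± 0.11 (0.0696) and Zbtb49 at 0.65 ± 0.22 (0.0705). The brightest Zbtb20 probe set read 68.8, 65.7, 54.5, 52.9 and 66.2 in wild-type and 49.5, 45.2, 54.7, 48.9 and 39.8 in depleted replicates 1 to 5, so 1 depleted array overlapped the wild-type range. Of the 7 tested Zbtb20 probe sets 6 had negative values. Without depleted replicate 3 Zbtb20 was called lower, which raised the family's falls to 2.

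Several uncalled members were grouped here, after their values were seen, for known roles in blood and immune cells. The group holds uncalled genes only, so it does not show how members with such roles behaved as a whole. The log2 fold changes were -0.094 and 0.064 for the 2 probe sets of Zbtb7b, which directs T cells to the helper lineage, -0.085 for the brighter probe set of Zbtb32, and 0.10 for the brightest of Zbtb46, a gene of classical dendritic cells. Zbtb1, needed for lymphocyte development, gave -0.083, with 43.8 ± 12.5 (SD, n = 5) in depleted against 45.4 ± 4.97 in wild-type samples. Zbtb16, which marks spermatogonial stem cells and innate-like T cells, had 1 tested probe set of 3. It read 5.68 to 13.0 in wild-type and 6.14 to 12.2 in depleted samples, near background, and gave 0.094.

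Among other uncalled genes, Zbtb24, mutated in a human syndrome of immunodeficiency with loss of centromeric DNA methylation, read 282.8 to 301.6 in wild-type and 305.3 to 326.8 in depleted samples. The groups did not overlap, yet the log2 fold change was only 0.11 ± 0.06 (SE; limma, Benjamini-Hochberg adjusted p = 0.271). Zbtb2, whose product is found at unmethylated CpG islands in mouse embryonic stem cells, gave 0.17 ± 0.06 (0.0936). Zbtb10, whose human protein binds variant telomeric repeats, gave 0.10 on its brightest probe set, and 0.65 and -0.45 on the dimmer ones.

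The other tested genes, for which no role is given here, were Zbtb3, Zbtb5, Zbtb6, Zbtb8a, Zbtb8b, Zbtb11, Zbtb12, Zbtb14, Zbtb21, Zbtb22, Zbtb25, Zbtb26, Zbtb37, Zbtb40, Zbtb41, Zbtb43, Zbtb44 and Zbtb45, together with Zbtb11os1. None was called. On the brightest probe set the highest of their log2 fold changes was 0.24 for Zbtb14 and the lowest -0.28 for Zbtb43. Zbtb8b read 466.4 to 571.4 in wild-type and 499.3 to 604.3 in depleted samples. Zbtb11 had a log2 fold change of 0.12, and Zbtb11os1, from the opposite strand, of -0.020. Zbtb42 was left out of the test as dim, its only probe set having a mean signal of 3.28 in wild-type and 4.44 in depleted samples, and it lay above background on no array.

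Probe sets of the same gene often gave values of different sign, though a difference between them was not tested. Of the 19 genes with several tested probe sets, 11 had values of both signs and 8 of a single sign. Some of these values lay near 0, such as -0.094 and 0.064 for Zbtb7b, each with a 95% interval that spanned 0. Zbtb34 gave 0.31 on its brighter and -0.35 on its dimmer probe set, each with a 95% interval that left out 0 and neither called. Zbtb44 gave 0.16 on its brightest probe set and -0.49 on one whose groups did not overlap (11.1 to 14.4 in wild-type and 5.51 to 10.4 in depleted samples; limma, Benjamini-Hochberg adjusted p = 0.148). In all, 7 of the 71 tested Zbtb probe sets, or 9.86%, had groups that did not overlap, against 11.1% of all tested probe sets. Of the 7, 4 were higher in depleted samples, where the background was 4.69%, and 3 were lower, where it was 6.38%. For 31 of the 40 symbols at least 1 probe set lay above background on all 10 arrays. The other 9 were Zbtb3, Zbtb4, Zbtb5, Zbtb8a, Zbtb16, Zbtb38, Zbtb39, Zbtb41 and Zbtb42.

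Genes beside the called members were followed by position, taking the 3 named genes on each side in the RefSeq gene order. Of 36 such neighbours 21 were tested, and 1 was called higher and 2 lower, 14.3% against 16.4% of all genes. Tac2, which encodes neurokinin B and lies next to Zbtb39, fell. Its wild-type replicates 1 to 5 read 284.2, 291.8, 294.2, 252.5 and 290.5 and its depleted replicates 185.1, 176.0, 134.4, 176.9 and 156.0, with no overlap. The log2 fold change was -0.77 ± 0.09 (SE; limma, Benjamini-Hochberg adjusted p = 1.78e-05). Among the other tested neighbours of Zbtb39, Gpr182 gave -0.44, Rdh9 -0.52, Myo1a -0.22 and Nemp1 0.11, none of them called.

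Next to Zbtb33, which rose, Tmem255a fell from 54.1 ± 5.38 (SD, n = 5) to 27.3 ± 7.95 on its brightest probe set, without overlap, and its other 3 probe sets also gave negative values. Its log2 fold change was -0.96 ± 0.17 (SE; limma, Benjamini-Hochberg adjusted p = 0.000924). Next to Zbtb48, Klhl21, a BTB adaptor of Cul3 in cell division, rose from 38.7 ± 7.02 to 63.4 ± 20.2, with overlapping groups and a log2 difference of 0.64 ± 0.18 (adjusted p = 0.0265 in limma). The Klhl21 call was lost without wild-type replicate 3 or 5 or depleted replicate 1 or 3 (adjusted p from 0.0610 to 0.0705), without a filter on dim probe sets (0.0537) and without the intensity trend (0.0768). No tested neighbour of Zbtb7c, Zbtb17 or Zbtb18 was called.

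**Figure D4:**
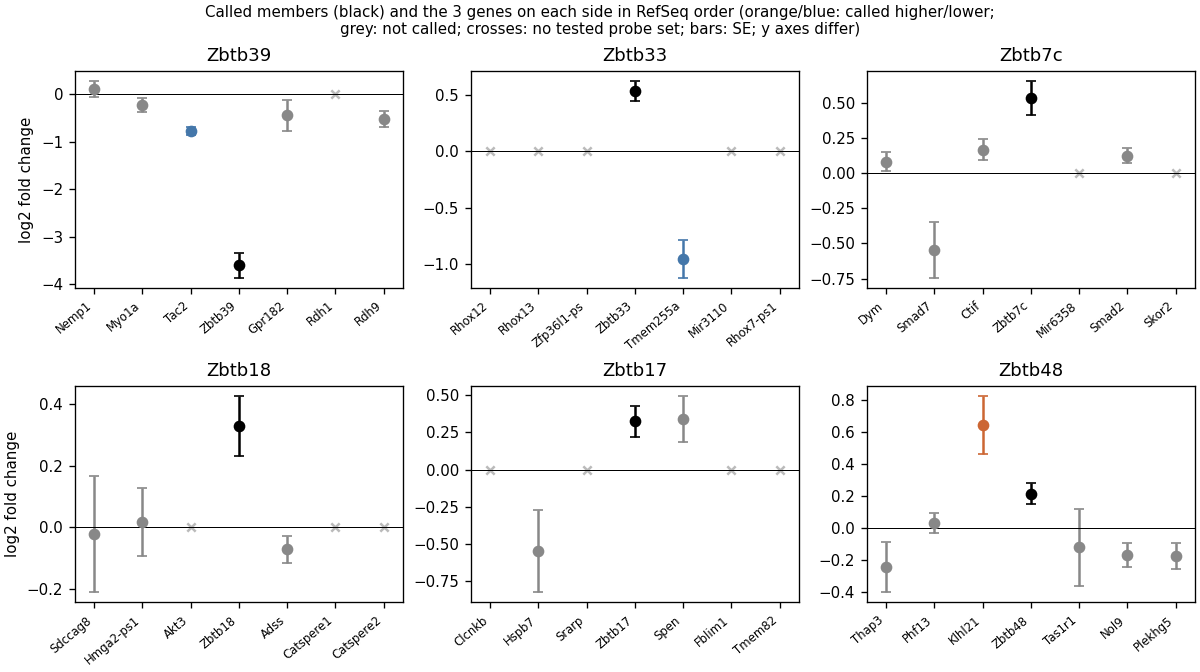
Log2 fold change (y axis, ± SE, depleted over wild type) of each called Zbtb gene and the 3 genes on each side in RefSeq order (x axis, order and not distance). Tac2 beside Zbtb39 and Tmem255a beside Zbtb33 were called lower, and Klhl21 beside Zbtb48 was called higher.

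Genes of proteins that work with BTB zinc fingers were called both ways, to be read against the 7.26% higher and 9.12% lower over all tested genes. The list of BTB zinc finger genes under other symbols also held Nacc1 and Nacc2, whose proteins have a BTB domain but no zinc fingers. Of its 9 tested genes, these included, 1 rose and 1 fell. Patz1 rose by 0.36 ± 0.07 on the log2 scale (SE, limma, Benjamini-Hochberg adjusted p = 0.00197), and Hic1 fell from 37.4 ± 6.41 (SD, n = 5) to 24.9 ± 4.02. Of 19 tested co-repressors and chromatin partners 1 rose and 0 fell, with 0 called in limma without a filter on dim probe sets. The member that rose was Tbl1xr1, a subunit of the Ncor1 complex, at 0.41 ± 0.12 (SE; limma, Benjamini-Hochberg adjusted p = 0.0285). Of 24 tested genes of the CUL3 ligase and its BTB adaptors 3 rose and 5 fell. Keap1, the adaptor that marks Nrf2 for degradation, fell from 199 ± 10.4 to 134 ± 7.22, and Spopl from 26.3 ± 5.24 to 10.6 ± 3.13. Klhl13, Rcbtb2 and Ibtk also fell, with log2 fold changes of -0.31, -0.34 and -0.33, and Klhl22 and Klhl25 rose by 0.28 and 0.33 beside Klhl21. The medians of the 3 lists were 0.095, 0.018 and 0.019, against -0.017 over all tested genes.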

How the data were processed

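The deposited table holds 1 intensity value per probe set and array, a linear MAS5 signal per the submitters' processing notes, without a stated version, from 5 wild-type and 5 CTCF-depleted arrays grouped by title. Each array's mean, without its lowest and highest 2%, was 150.001 in the deposited table, so arrays had been scaled to a common level. Read depth does not apply to arrays, and precision depends on how many there are and on the signal level. The share of probe sets brighter than the Bacillus controls was 49.4% to 62.9% per array.

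Values were taken as log2(signal + 2.47), where 2.47 is the 25th percentile of the signals. This offset shrinks the changes of dim genes. The 64 control probe sets and those with a mean under the 40th percentile were left out, and a fit across the remaining 27022 was made in R 4.3.3 with limma 3.58.1 (lmFit, eBayes with the variance following intensity) and Benjamini-Hochberg adjusted p-values across the whole fit. For counts by gene, the brightest tested probe set stood for each symbol. Single members were also compared by two-sided exact permutation tests. The fit was tested on simulated data. Probe sets left out as dim include 16 of the Zbtb family.

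RefSeq's gene table for GRCm38.p6, used for names and gene order, held the gene IDs of all 40 symbols. The members, lists and alternatives were chosen with earlier results of these data known. Named were the Ctcf probe sets, all called Zbtb genes, Zbtb33 and Zbtb39, every other Zbtb gene at least by symbol, the positional neighbours, and called list members; the grouping by role and other examples were chosen after values were seen. Features of the proteins were not analysed here. Alternatives were other offsets, filters, scalings, variance models, a replicate block, an RNA quality covariate, gene means and leaving out arrays. Same-numbered arrays correlated at 0.0024 to 0.051 after removing group means, with 0 of 5 pairs over 0.1. Correlations this weak gave no ground to pair the samples. They cannot tell whether same-numbered samples were collected or processed together. The labels name no batch.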

Additional observations from a re-analysis of the deposited data

Results flagged for a closer look

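In groups of 5, an array was set apart when its gap to the nearest other array exceeded Dixon's 95% critical share of the group's range, which chance meets in about 1 of 20 groups. Of the 146 groups checked, 11 met it. Depleted replicate 5 stood above the other depleted samples on both Ctcf probe sets, at 61.1 against at most 14.2 (gap 0.869 of the range) and 95.8 against at most 29.3 (0.841). Depleted replicate 2 stood below the other depleted samples for Zbtb18, at 347.6 against 486.5 to 536 (0.737), for 1 Zbtb21 probe set, at 400.1 against 465.1 to 490.5 (0.720), and for the dim Zbtb1 probe set, at 6.22 against 7.80 to 8.36 (0.736). Depleted replicate 1 stood above the others for Zbtb5, at 32.8 against 15.8 to 19.1 (0.803), and for a dim Zbtb44 probe set, at 31.3 against 10.5 to 15.1 (0.775). Depleted replicate 3 was high for Zbtb40, at 105.9 against 82.4 to 88.8 (0.731). Among wild-type samples, replicate 4 was high for Zbtb17, at 114.6 against 93.4 to 99.2 (0.724). Wild-type replicate 1 was low for a Zbtb14 probe set, where the others read 29.0 to 31.7 (0.825), and replicate 5 for the dim Zbtb43 probe set, at 3.50 against 9.65 or more (0.721).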

How the results depend on the processing

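Zbtb39, the brighter Zbtb33 probe set and Zbtb7c kept direction and call in all 22 alternative fits, and both Ctcf probe sets kept theirs, at -5.89 to -5.21 and -5.42 to -4.83 when 1 array was omitted. Zbtb17 and Zbtb18 lost their call in 9 of the 22 each and Zbtb48 in 12, without a change of direction. In processing alternatives the Zbtb genes called higher, 5 as reported, numbered 2 without a filter, without an intensity trend and at an adjusted p under 0.01, and 9 with median centring, where calls over all probe sets were 66.7% higher, against 43.5% as deposited. Leaving out depleted replicates 2 and 5 together, chosen after seeing the data, gave 8. Averaging each gene's probe sets gave 4, without Zbtb17. As probe sets the rises numbered 2 without a filter, 3 without the trend, 10 with median centring and 9 without those replicates. Over all probe sets they numbered 1192, 1020, 2179 and 1386 in the same order, against 1481 as reported. More probe sets were tested without a filter. Falls numbered 2 in place of 1 with a filter at the 60th percentile (genes and probe sets), and as probe sets also without the trend and without those replicates. Leaving out 1 array at a time gave 2 to 6 rises as genes and 2 to 7 as probe sets, 1 to 2 falls in both, 2743 to 3314 called probe sets in all, 2 to 4 called neighbours and a median of the Zbtb genes of 0.027 to 0.096. Called members of the lists ran from 1 to 3 for the list of other BTB genes, 0 to 3 for co-repressors and 5 to 8 for the CUL3 list. The first list had 1 call without a filter, with the 3-prime to 5-prime covariate and without depleted replicates 2 and 5. The second had 0 without a filter or trend and 2 with the 60th percentile filter, either other scaling, array weights, the replicate block or the covariate. The third had 5 without a filter and 4 without the trend. The uncalled Zbtb33 probe set turned to -0.043 with the covariate and -0.091 without depleted replicates 2 and 5, and lay between -0.067 and 0.13 when 1 array was omitted. The replicate block, for numbers not shown to pair the samples, left the Zbtb calls at 5 higher and 1 lower and gave 2 called co-repressors. Of the 5 wild-type arrays 2 matched best with their own number. The causes were not tested. Dim signals limit what could be detected for Zbtb3, Zbtb4, Zbtb8a, Zbtb16, Zbtb38 and Zbtb41.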

Other observations

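Outside the rule, 4 probe sets shared by Zbtb8os, the tRNA ligase cofactor archease, and Gm8539 were present, and 1 shared by Zbtb38 and E030011O05Rik. The brightest, of Zbtb8os and Gm8539, read 64.9 to 71.6 in wild-type and 58.9 to 68.5 in depleted samples, a log2 fold change of -0.12 with an adjusted p of 0.493 in limma. The other 4 were too dim to test.

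The letters GGGGGCGCT, searched after the Zbtb39 window had been read, were also counted over all promoter windows as a description without a test. Of 156 tested genes with them in a window 12.8% were called higher and 19.2% lower in depleted oocytes, against 7.23% and 9.09% of the 11126 tested genes with any window. For the 1573 tested genes with a match to the 12-letter pattern the shares were 8.90% and 11.5%. The median log2 fold changes were -0.033, -0.015 and -0.017. Windows with the letters were not matched to the others for base composition or signal.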
